A study of Mus musculus with 12 samples.

Results

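Hox genes encode homeodomain transcription factors that give cells along the body axis their position, and in mammals they lie in 4 clusters in which the order of the genes follows the order of the body regions they pattern. Genes with the same number in different clusters are paralogs: groups 1 to 4 act in the hindbrain and the pharyngeal arches, and groups 9 to 13 act in the trunk, limbs and urogenital tract. The clusters are rich in CpG, are kept silent by Polycomb proteins in tissues outside their domain, and are known for long stretches of little DNA methylation. DNA methylation over 38 Hox genes was followed here in oral soft tissue of mice, 10 genes each from the Hoxa and Hoxb clusters and 9 each from Hoxc and Hoxd. The members were chosen by name, and each was measured from 2000 bp upstream of its start to its end, as annotated in GENCODE vM1 on the mm9 assembly. All 38 had at least 20 reads in every sample, as had 14383 of the 22271 protein-coding genes.

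DNA was examined by enhanced reduced representation bisulfite sequencing (ERRBS), in which MspI, an enzyme that cuts at CCGG whether or not the inner cytosine is methylated, releases short fragments whose ends are read after bisulfite conversion. All samples came from female B6C3F1/J mice that were 8 weeks old at the outset, before treatment. Each sample held the pooled buccal mucosa, floor of the mouth and palate soft tissue. The DMSO group received the vehicle alone, the DBP group received dibenzo[def,p]chrysene, a polycyclic aromatic hydrocarbon carcinogen, at 24 nmol on the oral cavity 3 times per week for 5 weeks, and tissue was taken 48 h after the last dose. A group here called DBP+agent received DBP and an unnamed chemopreventive agent, and a group here called DBP+BR extract received DBP and an agent the labels call BR extract. There were 3 samples in each of the 4 groups. The labels do not tie samples to mice, so the spread between these samples may be technical. P-values of the gene-level test measure that spread, while those of tests on reads pooled over a group do not. Depth ranged from 3286281 to 7971877 CpG calls in the DMSO and DBP samples and from 16900829 to 78865849 in the other 2 groups, so depth and treatment cannot be told apart in a comparison of the latter with DBP. Because the tissue was bulk, a change of methylation within cells and a change in the mix of cells cannot be told apart either.

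The level of a gene is the percent of all reads over its cytosines that called them methylated. A read that crosses several of these cytosines is counted at each of them, so the reads given for a gene are calls and not molecules. A few short stretches of the mm9 genome show what this level is made of. The first 4 were the 100-base stretches, one in each cluster and outside untranslated exon sequence, that held the most CpGs with at least 100 reads over the 12 samples and at least 2 measured MspI sites. They are printed 5′ to 3′ on the plus strand, and capitals mark the measured CpGs, written as CG, and the measured MspI sites, written as CCGG.
Hoxa2, coding exon, chr6:52114357-52114456: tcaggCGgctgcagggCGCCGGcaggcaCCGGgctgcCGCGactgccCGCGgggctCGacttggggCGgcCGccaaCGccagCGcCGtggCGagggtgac
Hoxb6, intron, chr11:96156783-96156882: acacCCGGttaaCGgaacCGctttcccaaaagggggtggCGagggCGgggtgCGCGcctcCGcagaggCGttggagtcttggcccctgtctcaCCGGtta
Hoxc13, coding exon, chr15:102752141-102752240: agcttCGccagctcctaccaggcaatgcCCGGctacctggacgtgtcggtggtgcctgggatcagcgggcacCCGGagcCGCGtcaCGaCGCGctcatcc
Hoxd9, coding exon, chr2:74536167-74536266: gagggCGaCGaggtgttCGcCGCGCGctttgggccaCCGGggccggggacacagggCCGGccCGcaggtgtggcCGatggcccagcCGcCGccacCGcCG

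In the Hoxa2 stretch the 2 CpGs at MspI sites were methylated in 16.9% and 36.0% of reads, and the 13 other measured CpGs lay between 0 and 8.46%, with a median of 1.47%. In the Hoxb6 stretch the MspI sites read 34.7% and 41.2%, and the 8 other CpGs lay between 1.17% and 9.67%. The Hoxc13 stretch had 28.8% and 13.8% at its MspI sites and at most 6.25% at its 6 other CpGs. In the Hoxd9 stretch the MspI sites read 30.1% and 21.4%, while 12 other CpGs within the same 100 bases had a median of 0.137% and a highest value of 3.05%. In all 4 stretches the CpGs at the cutting sites stood above every other CpG.

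The other 2 stretches are shown because they hold the highest levels. The first is the Hoxd3 stretch with the highest mean outside MspI sites, and the second is 30 bases around the Hox CpG with the highest level, in an exon of Hoxa11.
Hoxd3, intron, chr2:74578510-74578609: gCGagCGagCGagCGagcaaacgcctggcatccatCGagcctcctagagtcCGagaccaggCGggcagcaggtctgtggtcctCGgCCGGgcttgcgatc
Hoxa11, exon, chr6:52196028-52196057: aaagcaCGtaatCGCCGGtgtaactcatgt

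The Hoxd3 stretch opens with a run of 4 CpGs spaced 4 bases apart, which were methylated in 42.1%, 52.2%, 10.5% and 55.3% of reads. The next 4 measured CpGs in that stretch had between 0 and 1.57%, and the MspI site near its end had 36.0%. The run rested on 132 to 134 reads from 10 samples. In the Hoxa11 stretch the 3 CpGs rose from 15.2% to 63.2% to 77.9% toward the MspI site, with between 443 and 493 reads each from all 12 samples. Hoxa11, a gene of forearm and uterus patterning, thus held the most methylated Hox CpG at an MspI site. The most methylated Hox CpG outside MspI sites, at 63.2%, lay directly beside that same site.

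**Figure D1:**
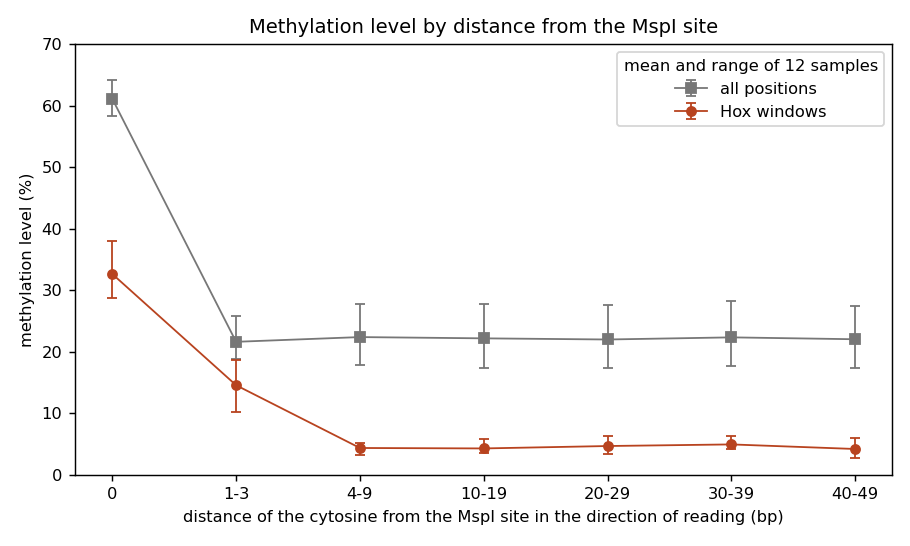
Methylation level (%) against the distance of a cytosine from the MspI site at which reads of its strand begin (bp), for Hox windows (circles) and all positions (squares). Points are means of 12 samples and bars run from the lowest to the highest sample: Hox cytosines at the site averaged 32.6%, those 1 to 3 bp away 14.6%, and those from 4 bp on between 4.19% and 4.94%.

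The same split ran through the whole set. Cytosines at MspI sites had 28.7% to 37.96% methylated reads in each of the 12 samples, with a mean of 32.6% ± 2.36 (SD, n = 12). All other Hox cytosines had between 3.88% and 5.68%, with a mean of 4.78% ± 0.521. The plot of level by distance from the site shows that 1 to 3 bp from the cut the level was still 14.6% ± 2.98, and that from 4 to 9 bp it was 4.35% ± 0.536. From there to 49 bp the mean lay between 4.19% and 4.94%. Over all positions of the genome the level was 61.1% ± 1.72 at the site and 21.6% ± 2.23 at 1 to 3 bp, so the genome as a whole showed a step too. Whether the preparation of fragment ends in the library contributes to the values at MspI sites was not tested, so these percentages may not be the methylation of the tissue. Hox levels are therefore given both over all CpGs and outside MspI sites.

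Over all CpGs, the mean level of the 38 genes lay between 5.46% and 28.3%, with a median of 11.3%. Among all protein-coding genes the median was 24.2%. Of the Hox genes 89.5% were under 20%, against 43.6% of all genes. Outside MspI sites 34 of the 38 genes kept at least 20 reads in every sample, the exceptions being Hoxb1, Hoxb5, Hoxc5 and Hoxd4. These 34 had a median of 4.08%, and all of them were under 20%, with 30 under 10% and 21 under 5%. The same measure over 12983 protein-coding genes had a median of 12.3%, and 62.0% of them were under 20%. Hox genes were chosen by name and not by these levels, and no test was made of the list.

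Near the gene starts the order turned. Within 1000 bp on either side of the start, 26 Hox genes with enough reads had a median of 8.67%, and 10464 protein-coding genes had a median of 5.92%. Outside MspI sites the medians were 2.58% for 21 Hox genes and 0.699% for 9514 genes. All 21 were under 20%, as were 94.8% of the genes, so both sets were low at their starts.

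With at least 100 reads pooled over the samples, 1554 Hox CpGs were measured, of which 322 were at MspI sites. Of the 1232 others, 1193 were under 20%, or 96.8%, and their median was 2.38%. In all protein-coding windows 79.3% of 390717 such CpGs were under 20%, and 16.1% were at 50% or more, but their median was 0.279%, below that of the Hox CpGs. Over all CpGs the medians were 3.72% in Hox windows and 1.69% in all protein-coding windows. Hox windows thus held fewer CpGs at high levels, while their median CpG was higher. Among the Hox CpGs outside MspI sites only 3 were at 50% or more, those being the Hoxa11 CpG at 52196040 and 2 of the Hoxd3 run. No Hox CpG at 5% or less was at an MspI site, out of 869, while 285 of the 324 at 20% or more were at one. DBP+BR extract sample 1 gave 32.0% of these reads. Without it, 96.8% of 1171 CpGs outside MspI sites with at least 20 reads were under 20%, the highest at an MspI site was again the Hoxa11 CpG (77.8%), and the highest elsewhere was the Hoxd3 CpG at 74578515 (67.0%).

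**Figure D2:**
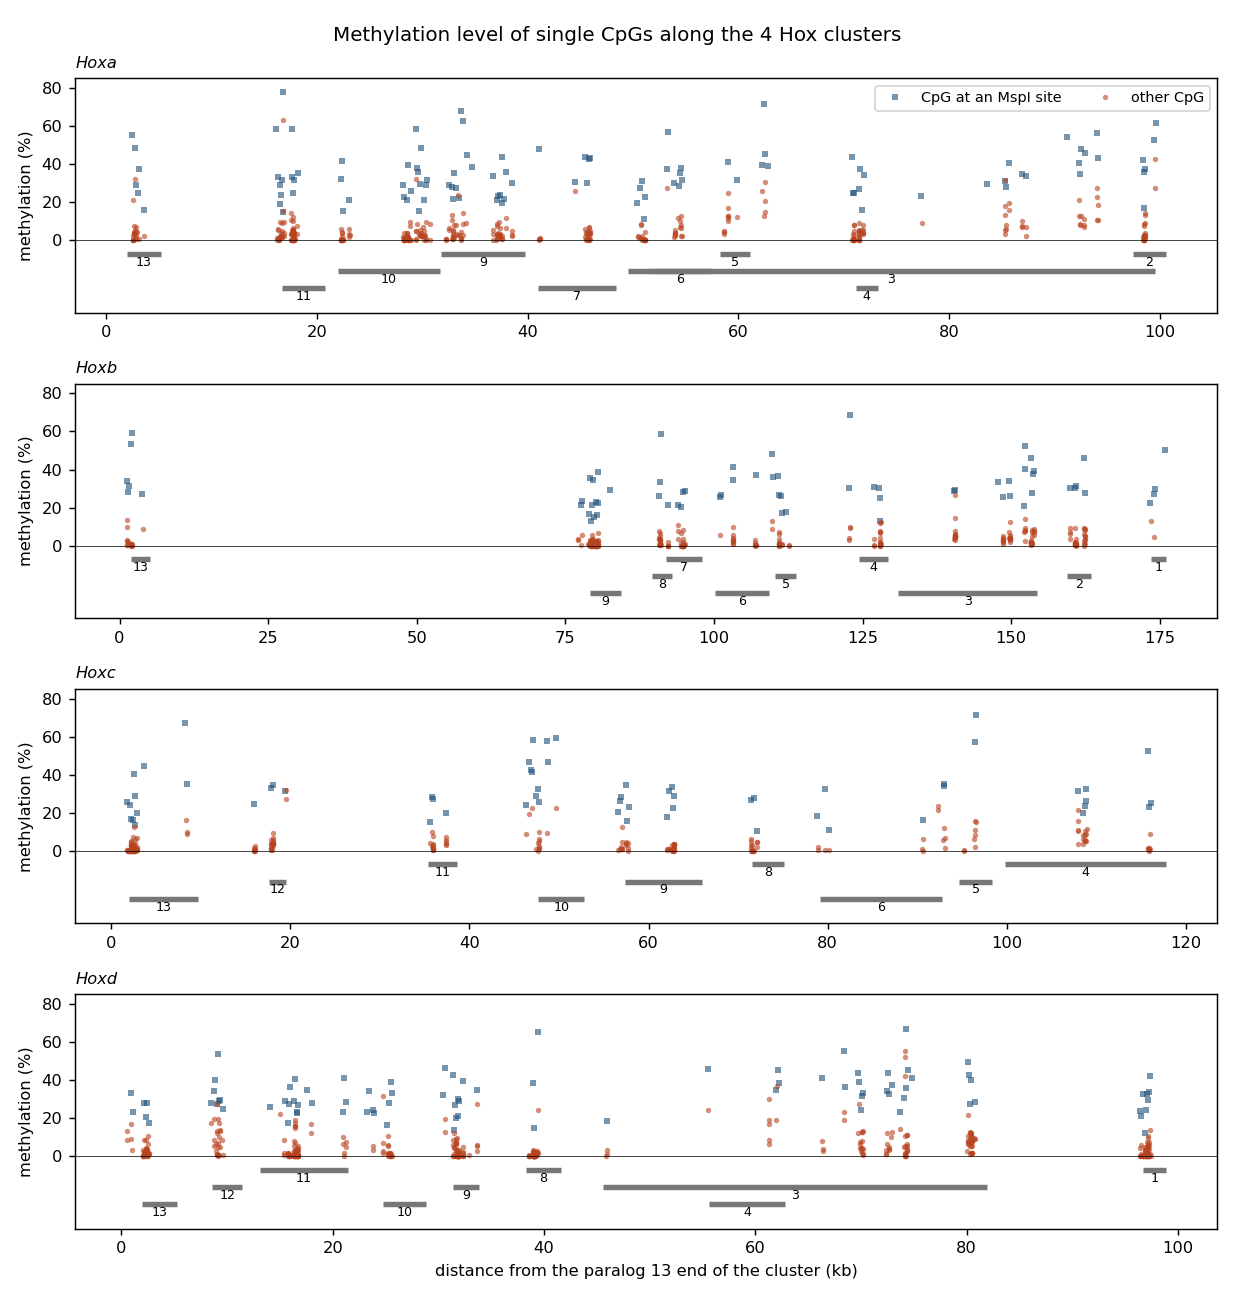
Methylation level (%) of 1554 CpGs along the 4 Hox clusters, against the distance from the paralog 13 end of each cluster (kb). Squares are CpGs at MspI sites, circles are other CpGs, and grey bars with paralog numbers are the genes: 96.8% of the circles lie under 20%, and the highest are in Hoxa11 (63.2%) and Hoxd3 (55.3%).

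Along the clusters, levels outside MspI sites were low in each of them. The plot of single CpGs along the clusters shows the circles near the bottom of each panel. The share of CpGs under 20% was 95.4% of 370 in Hoxa, 99.6% of 254 in Hoxb, 96.5% of 198 in Hoxc and 96.6% of 410 in Hoxd. Pooled over a cluster, the level outside MspI sites was 6.09% ± 0.763 (SD, n = 12) in Hoxa, 5.06% ± 0.888 in Hoxc, 4.29% ± 0.664 in Hoxd and 3.47% ± 0.659 in Hoxb. Hoxa was above Hoxb in every sample, since its lowest sample had 5.00% and the highest Hoxb sample 4.95%. The neighbours in this order overlapped between samples. Over all CpGs the order was Hoxa at 13.1%, Hoxc at 11.3%, Hoxb at 10.1% and Hoxd at 9.51%.

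Within genes, the level outside MspI sites was 4.83% ± 1.05 upstream of the starts, 4.29% ± 0.521 in exons and 6.22% ± 0.978 in introns (SD, n = 12). By distance from the nearest start, the median CpG outside MspI sites rose from 1.09% within 250 bp to 1.95% at 250 to 500 bp, 2.19% at 500 to 1000 bp, 2.88% at 1000 to 2000 bp and 4.61% at 2000 to 5000 bp. These bins held 255, 288, 296, 221 and 154 CpGs.

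**Figure D3:**
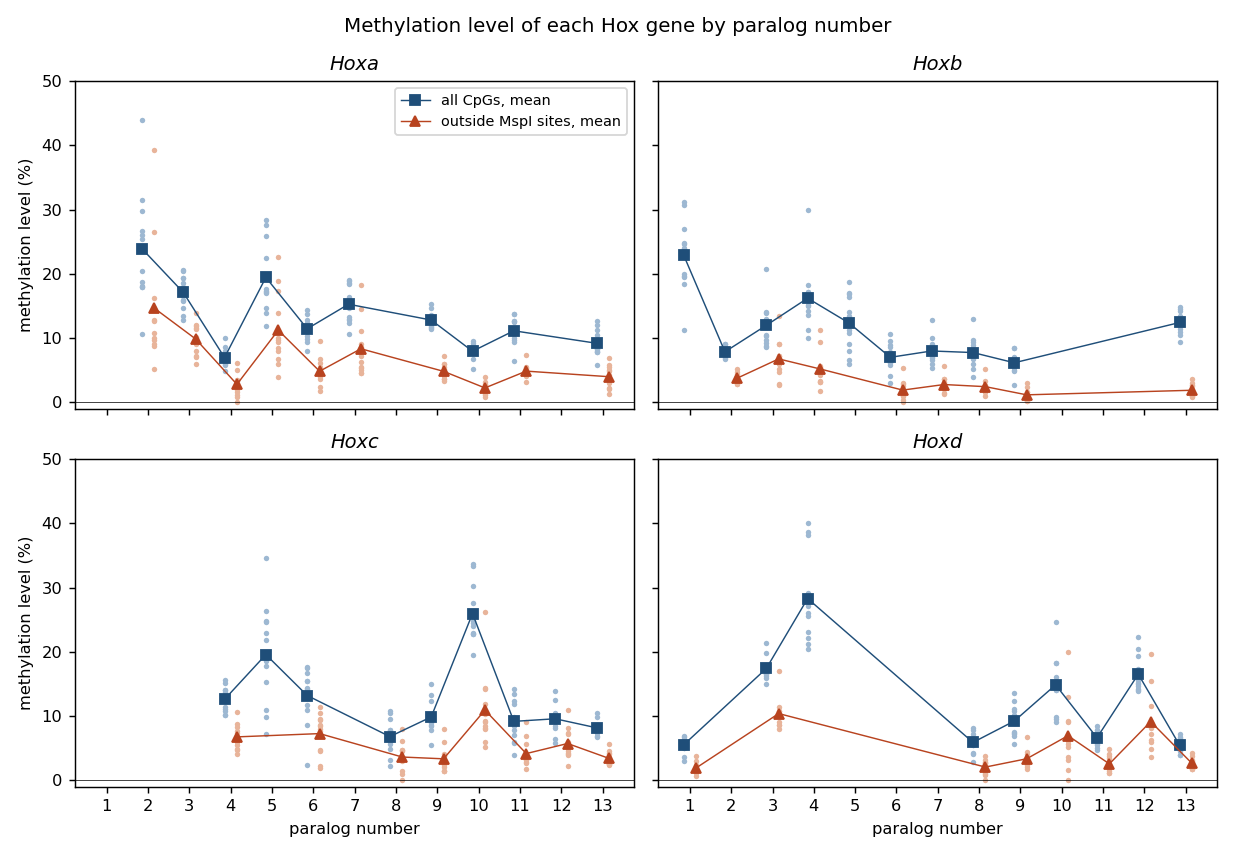
Methylation level (%) of each Hox gene by paralog number in the 4 clusters. Small points are the 12 samples, squares are means over all CpGs, and triangles are means outside MspI sites, drawn only for genes with 20 reads in every sample: the highest means over all CpGs were Hoxa2 (23.9%), Hoxb1 (22.9%), Hoxc10 (26.0%) and Hoxd4 (28.3%).

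By paralog number, the anterior genes had the highest median, and the classes overlapped. Over all CpGs the median was 16.2% for 11 anterior genes (groups 1 to 4), 11.4% for 11 central genes (groups 5 to 8) and 9.41% for 16 posterior genes (groups 9 to 13). Outside MspI sites the medians were 6.76% for 9 anterior, 3.63% for 9 central and 3.71% for 16 posterior genes. Each class held genes at both ends. Anterior Hoxd1 had 1.92% outside MspI sites, and posterior Hoxc10 had 10.9%. Across the 38 genes Pearson's r of the level outside MspI sites with the paralog number was -0.36 (Spearman's rho -0.34). With the number of CpGs per kb of the window r was -0.38 (rho -0.39), so the paralog number was not the closer relation. Whether the relation with paralog number is separate from that with CpG density was not tested. The correlations given here include the 4 genes that fell under 20 reads outside MspI sites in some samples. Among these is Hoxd4, with the highest level of all outside MspI sites, 20.3%. The points share the samples and, where windows overlap, the reads. The level over all CpGs also moved with the share of a gene's reads that fell at MspI sites (r = 0.79), which ran from 10.1% in Hoxd8 to 63.5% in Hoxb1. The part of that share in the order of the genes was not tested. Between the levels with and without MspI sites r was 0.90.

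Windows of neighbouring Hox genes overlap, so members are not independent. In all 22 members shared sequence with another, and 931 of 6776 cytosines (13.7%) lay in more than 1 window. The Hoxa3 annotation spans Hoxa4, Hoxa5 and Hoxa6, and that of Hoxd3 spans Hoxd4, so their levels hold the same reads. Hoxa2 also shares most of its reads with Hoxa3, since only 6 of its measured positions lie in no other Hox window. Over positions in no other window Hoxa3 had 25.2%, beside 23.9% for Hoxa2 over its whole window.

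The member with the highest level in each cluster was read sample by sample. Hoxd4, on chromosome 2 at 74560035 to 74567217 on the plus strand, had 21.2%, 38.6% and 22.2% in DMSO, 38.2%, 27.7% and 40% in DBP, 26.0%, 20.5% and 23.1% in DBP+agent and 25.6%, 29.2% and 27.2% in DBP+BR extract. Its reads numbered between 27 and 1157 per sample. Its mean was 28.3% ± 6.95 (SD, n = 12), beside a mean counting error of 4.80 percentage points in a single sample. That error takes all calls as independent, though a read can give several, so it may be too small. Outside MspI sites Hoxd4 fell under 20 reads in some samples, with a mean of 20.3% ± 6.34.

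Hoxc10, a gene of lumbar and hindlimb patterning on chromosome 15 at 102797227 to 102802324 (plus strand), was the only posterior gene above 20%. Its levels were 25.4%, 24.5% and 33.7% in DMSO, 33.3%, 24.8% and 19.4% in DBP, 24.0%, 23.0% and 27.5% in DBP+agent and 30.3%, 22.7% and 22.8% in DBP+BR extract. Outside MspI sites its mean was 10.9% ± 5.59, with a lowest sample at 5.13%, a median of 9.16% and a highest at 26.2%. MspI sites held 46.2% of its reads.

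Hoxa2, which specifies the second pharyngeal arch and so bears on the oral and facial skeleton, lies on chromosome 6 at 52112350 to 52115412 on the minus strand. It had 20.4%, 26.1% and 43.9% in DMSO, 18.1%, 18.0% and 26.7% in DBP, 18.7%, 29.7% and 17.9% in DBP+agent and 10.7%, 31.4% and 25.4% in DBP+BR extract. Its spread was the widest of the 38 genes (SD 8.65, n = 12), and DMSO sample 3, with 41 reads, was the highest. Outside MspI sites the level ran from 5.21% to 39.3%, with a median of 11.7%.

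Hoxb1, which marks a segment of the hindbrain, lies on chromosome 11 at 96227066 to 96229570 (plus strand). Its levels were 30.8%, 19.5% and 20% in DMSO, 11.3%, 24.7% and 31.3% in DBP, 27.0%, 23.9% and 24.1% in DBP+agent and 18.4%, 24.6% and 19.6% in DBP+BR extract. With 63.5% of its reads at MspI sites, Hoxb1 had a mean of only 6.81% elsewhere.

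At the other end, Hoxd13 and Hoxb9 stayed under 10% in every sample. Hoxd13, which shapes the digits, lies on chromosome 2 at 74506367 to 74509656 (plus strand) and had 6.20%, 4.51% and 3.89% in DMSO, 3.92%, 5.14% and 5.24% in DBP, 6.72%, 6.53% and 7.16% in DBP+agent and 6.34%, 4.71% and 5.21% in DBP+BR extract. Hoxb9 (chromosome 11, 96132771 to 96137909, plus strand) had 7.11%, 6.62% and 8.39% in DMSO, 6.98%, 5.48% and 4.83% in DBP, 8.38%, 5.57% and 6.24% in DBP+agent and 4.98%, 2.76% and 6.54% in DBP+BR extract. Outside MspI sites Hoxb9, a gene of the thoracic segments, was the lowest of the 34 genes, at 1.17% ± 0.894 (SD, n = 12).

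Hoxc8 (chromosome 15, 102821053 to 102824698, plus strand), also a thoracic gene, had 3.15%, 2.26% and 10.8% in DMSO, 10.5%, 7.87% and 4.88% in DBP, 9.57%, 6.28% and 7.86% in DBP+agent and 6.03%, 5.59% and 6.94% in DBP+BR extract. Hoxa4 (chromosome 6, 52139670 to 52141752, minus strand) had 4.88%, 10% and 6.19% in DMSO, 7.22%, 7.97% and 7.08% in DBP, 6.59%, 6.57% and 6.90% in DBP+agent and 5.89%, 8.54% and 5.82% in DBP+BR extract. In each of these 4 low genes the ranges of DMSO and DBP overlapped.

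The other 30 genes lay between these ends. Over all CpGs the next highest were Hoxc5 at 19.6%, Hoxa5 at 19.4%, Hoxd3 at 17.4%, Hoxa3 at 17.1%, Hoxd12 at 16.5% and Hoxb4 at 16.2%. Outside MspI sites Hoxa2 at 14.7%, Hoxa5 at 11.2%, Hoxc10 at 10.9% and Hoxd3 at 10.4% were the 4 above 10%. Hoxa5 acts in lung and cervical vertebrae, and Hoxd3 acts in the neck.

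**Figure D4:**
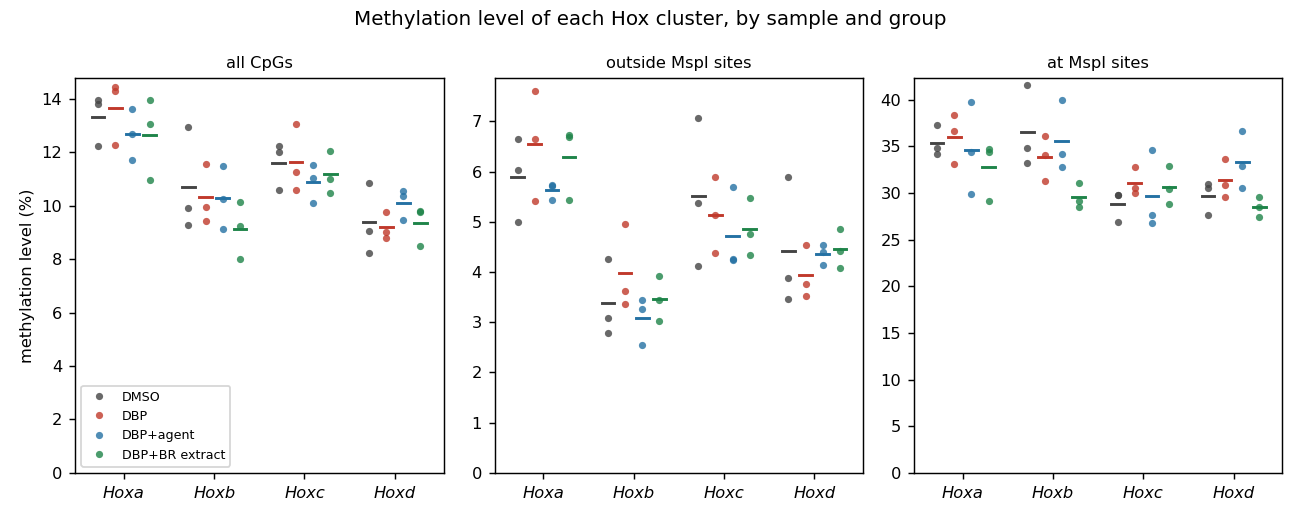
Methylation level (%) of each Hox cluster by sample, over all CpGs, outside MspI sites and at MspI sites. Points are single samples, coloured by group, and bars are group means of 3 samples: over all CpGs and outside MspI sites the DBP and DMSO samples overlap in every cluster, and at MspI sites in Hoxb the DBP+BR extract samples (28.5% to 31.1%) lie below the DBP samples (31.3% to 36.1%).

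The first comparison asked whether DBP changes methylation. Over the 4 Hox clusters together the groups overlapped. The level was 11.3% ± 1.25 (SD, n = 3) in DMSO, 11.2% ± 0.714 in DBP, 11.1% ± 0.695 in DBP+agent and 10.6% ± 1.04 in DBP+BR extract. Outside MspI sites the means were 4.85%, 4.90%, 4.54% and 4.82%. Within each cluster the DMSO and DBP ranges overlapped over all CpGs and outside MspI sites, as the plot of cluster levels by group shows. Hoxa ran from 12.2% to 13.97% in DMSO and from 12.3% to 14.4% in DBP. Hoxb ran from 9.29% to 12.9% and from 9.44% to 11.6%. Hoxc ran from 10.6% to 12.2% and from 10.6% to 13.1%, and Hoxd from 8.22% to 10.9% and from 8.78% to 9.78%. At MspI sites they overlapped in Hoxa, Hoxb and Hoxd. In Hoxc they did not, with 26.9% to 29.8% in DMSO and 29.98% to 32.8% in DBP.

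Split by feature over all CpGs, DBP and DMSO were apart in 3 of 12 sets, and not all in the same direction, and no test was made. No share for such sets over the genome was computed. Among single genes 4.29% were apart with DBP higher and 8% with DBP lower. Outside MspI sites features were split only over the 4 clusters together, and there DBP and DMSO overlapped upstream, in exons and in introns. Hoxb exons had 7.04% to 7.92% in DMSO and 8.60% to 10.1% in DBP. Upstream of the Hoxc starts DMSO had 9.96% to 12.98% and DBP 14.2% to 15.4%. Upstream of the Hoxb starts DMSO was the higher, at 17.3% to 28.6% against 14.2% to 17.0%.

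At MspI sites DBP+BR extract had the lowest group mean over all Hox windows, 30.6%, with samples at 28.7% to 31.6%, against 31.8% to 34.6% in DBP. The samples of these groups were apart in Hoxb, where DBP+BR extract ran from 28.5% to 31.1% and DBP from 31.3% to 36.1%, and in Hoxd, where DBP+BR extract ran from 27.4% to 29.55% and DBP from 29.61% to 33.7%. In Hoxa and Hoxc these groups overlapped. Over all protein-coding windows the MspI sites ran from 52.3% to 57.5% in DBP+BR extract and from 55.2% to 56.2% in DBP. No test was made of these cluster values, and 3 against 3 samples cannot go below p = 0.1 in an exact permutation test.

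Gene by gene, DBP was compared with DMSO by edgeR's quasi-likelihood test on methylated and unmethylated reads. None of the 38 Hox genes passed an adjusted p of 0.05, and none had an unadjusted p under 0.05. Over all 14407 genes tested 0 passed (0%), and 8.38% had an unadjusted p under 0.05. Logistic regression with overdispersion per gene also made 0 calls, but this test also missed every change in its check on simulated data, so its count cannot be read as a result. The median Hox difference was -0.76 percentage points, against -1.33 over all genes. Of the 38 genes 15 had the higher mean in DBP (36.7% of all genes). Over all its calls in the genome DMSO sample 1 had 32.9% methylated, against 40.8% and 41.3% in DMSO samples 2 and 3. The DBP samples had 34.0% to 36.7%, so DMSO sample 1 lay apart from its group and below DBP. The count of 0 over all genes depended on this sample. Without DMSO sample 1 edgeR called 1574 of 14457 genes, or 10.9%, and 0 of them were Hox genes. When edgeR was checked on simulated data with these genes and depths, it found most differences of 20 percentage points and missed most of 10. The simulated differences were put only in genes above 10% with many reads in every sample, and the spread between samples was fixed in advance. Of the 38 Hox genes 18 were under 10%, so the difference that could be found in them was not simulated.

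The 2 Hox genes with the smallest p in that comparison had higher means in DBP. Hoxb3, which acts in the hindbrain and the third pharyngeal arch, had 20.7%, 12.9% and 14.1% in DBP and 12.1%, 8.63% and 9.76% in DMSO. Its difference was 5.74 percentage points (SE 2.62, edgeR adjusted p = 0.603), and no DBP sample was below a DMSO sample. Without DBP sample 1 the difference was 3.35 points. Hoxc11, a gene of the posterior trunk and hindlimb, had 12.3%, 14.2% and 11.9% in DBP and 6.00%, 13.4% and 3.90% in DMSO, a difference of 5.03 (SE 2.98, adjusted p = 0.656), and these groups overlapped. The difference was 7.85 points without DMSO sample 2 and 3.09 points without DMSO sample 3. The 6 genes with ranges apart were Hoxb3, Hoxa6, Hoxa9 and Hoxa10, higher in DBP, and Hoxc4 and Hoxb13, lower in DBP. Over all genes 4.29% were apart with DBP higher and 8% with DBP lower.

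Outside MspI sites 34 Hox genes were tested in this comparison, and none passed (smallest edgeR adjusted p = 0.768). Hoxa4 alone had an unadjusted p under 0.05 (5.9% of all genes), with a mean of 3.98% in DBP and 0.919% in DMSO, a difference of 3.06 points (SE 0.728). Hoxb3 was second there, with 9.87% in DBP and 4.71% in DMSO. Hoxa4 and Hoxb3 were among 4 Hox genes whose DBP samples all lay above the DMSO samples outside MspI sites, and none lay below, against 6.05% and 5.54% of all 13009 genes.

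Single CpGs were tested by a likelihood ratio in logistic regression, with a q-value under 0.01 and a difference of pooled percentages over 10 percentage points. With 10 reads required of a cytosine in every sample, 139 Hox CpGs in 25 of the 38 genes could be tested between DBP and DMSO, and 30 of these were at MspI sites. None passed, against 60 of 53603 CpGs (0.112%). In its check on simulated data for this comparison the regression found 23 of 100 differences of 25 points and 86 of 100 of 40 points. Those differences were put only in CpGs at middle levels, with no spread between samples. Most differences of 25 points would thus be missed, and what could be found at CpGs with low levels was not simulated. Of the Hox CpGs 14 had an unadjusted p under 0.05 (10.8% of all CpGs tested), and Fisher's exact test and edgeR also made 0 calls (0.0317% and 0% of all CpGs). In edgeR 4 Hox CpGs had an unadjusted p under 0.05 (2.65% of all CpGs). Without DMSO sample 1, 1 of 143 Hox CpGs passed (0.211% of all CpGs).

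The 2 Hox CpGs with the smallest p were both outside MspI sites. The CpG at chromosome 6, 52162421, in an intron of Hoxa3 and upstream of Hoxa6, had 5.41%, 7.41% and 2.70% in DBP and 0 in each DMSO sample, out of 38, 57 and 20 reads (q = 0.193 by logistic regression). The CpG at chromosome 11, 96214391, in an exon of Hoxb2, had 0 in each DBP sample and 12.9%, 0 and 0 in DMSO (q = 0.199). The 139 differences ran from -15.4 to 11.7 percentage points with a median of 0.

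The other 2 comparisons asked how tissue given an agent with DBP differed from tissue given DBP alone. Both used the same 3 DBP samples, so their values are set side by side and not counted as separate evidence. By gene, none of the 38 passed in either comparison with edgeR's quasi-likelihood test, as none of 15736 and 15707 genes passed (0% in both), and logistic regression with overdispersion made 0 calls, with the same limit. Of the Hox genes 3 had an unadjusted p under 0.05 in DBP+agent versus DBP (4.87% of all genes) and 0 in DBP+BR extract versus DBP (1.84%). The median Hox differences were 0.19 and -0.90 percentage points, against -0.68 and -0.38 over all genes. The mean was higher than in DBP for 20 of the 38 genes with DBP+agent (40.1% of all genes) and for 11 with DBP+BR extract (45.4%).

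In DBP+agent versus DBP the smallest p belonged to Hoxd13 and Hoxb3. Hoxd13, with 6.72%, 6.53% and 7.16% against 3.92%, 5.14% and 5.24%, was higher by 2.04 points (SE 0.464, edgeR adjusted p = 0.925). Hoxb3, with 12.8%, 8.83% and 10.4% against 20.7%, 12.9% and 14.1%, was lower by 5.24 points (difference -5.24, SE 2.68, adjusted p = 0.925), and without DBP sample 1 the difference was -2.84. The third was Hoxc11, with 7.75% against 12.8%. For these 3 genes no sample of one group lay within the range of the other, as for 8 of the 38 in all, 3 higher and 5 lower with the agent (3.65% and 7.26% of all genes).

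In DBP+BR extract versus DBP the smallest p belonged to Hoxb8 and Hoxc11. Hoxb8 had 3.96%, 6.94% and 5.13% against 5.90%, 9.34% and 9.66%, a difference of -2.96 points (SE 1.48, edgeR adjusted p = 1), and the groups overlapped. Hoxc11 had 5.80%, 9.45% and 9.92% against 12.3%, 14.2% and 11.9%, a difference of -4.41 points (SE 1.48, adjusted p = 1), and they did not. In all 5 Hox genes were apart, 1 higher and 4 lower with BR extract (2.77% and 5.33% of all genes). Outside MspI sites none of 37 Hox genes passed in either comparison (smallest edgeR adjusted p = 0.727 and 1), and none had an unadjusted p under 0.05 (6.78% and 2.34% of all genes). There 2 Hox genes were apart and higher with DBP+agent, Hoxd13 and Hoxd1, and 2 were lower, Hoxb3 and Hoxd4 (2.07% and 10.4% of all genes). With DBP+BR extract none was apart and higher and Hoxa10 was lower (2.67% and 4.65%).

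At single CpGs the deeper samples let 302 Hox CpGs be tested in DBP+agent versus DBP and 236 in DBP+BR extract versus DBP. By logistic regression 17 of the 302 and 19 of the 236 passed, beside 5.42% of 127359 and 8.6% of 104415 CpGs in all. The Hox shares were thus near the background, and the passing of these CpGs is no result about Hox genes. An unadjusted p under 0.05 was reached by 125 and 104 Hox CpGs (27% and 32.3% of all CpGs). With DBP+agent 8 were higher (2.92% of all CpGs) and 9 lower (2.5%), and with DBP+BR extract 6 were higher (3.66%) and 13 lower (4.94%). At 25 points 3 and 4 passed (0.754% and 1.01% of all CpGs). Before this regression, and before edgeR and Fisher's exact test at single CpGs, reads of shallower samples were multiplied up to the highest median coverage. The p-values and q-values of these tests thus rest on more reads than were sequenced. With no scaling the regression passed fewer Hox CpGs in both comparisons. Read numbers printed for single CpGs are not scaled. The regression pools the reads of a group and takes no account of the spread between samples. With edgeR, which estimates that spread, 0 Hox CpGs and 0 CpGs in all passed in either comparison, and 24 and 11 Hox CpGs had an unadjusted p under 0.05 (2.93% and 2.48% of all CpGs). Fisher's exact test on pooled reads passed 13 and 19 Hox CpGs (4.79% and 8.05% of all CpGs). In the regression without DBP+agent sample 3 the count was 11 of 310 (4.98% of all CpGs), and without DBP+BR extract sample 3 it was 32 of 236 (10.3%).

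The share of MspI sites was 41.2% and 47.4% among the Hox CpGs that passed, and 22.2% and 23.3% among those tested, a difference that was not tested. In DBP+agent versus DBP 7 of the 17 were at MspI sites, as were 67 of the 302 tested, and over the genome 9.24% of CpGs at MspI sites and 3.91% of the others passed. In DBP+BR extract versus DBP it was 9 of the 19 and 55 of the 236, and over the genome 16% and 5.62%. Of the 17 CpGs, 9 had groups whose samples did not overlap, and of the 19, 6 did (2.48% and 3.19% of all CpGs tested passed with groups apart).

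**Figure D5:**
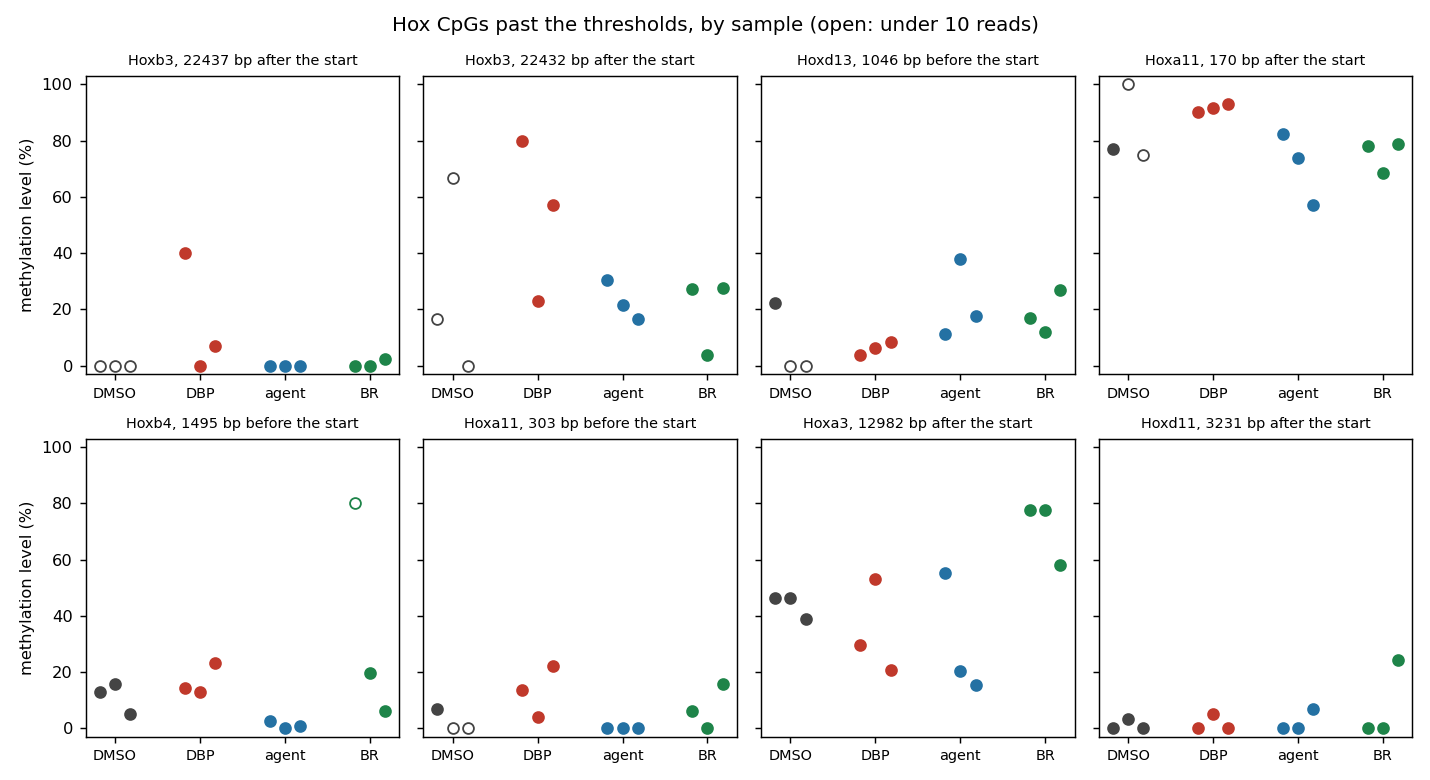
Methylation level (%) in each sample at 8 Hox CpGs past the thresholds: the 4 that passed in both comparisons (top) and, below, the 2 with the smallest p in each. Each panel names the gene and the distance from its start, filled points have 10 reads or more and open points fewer; at the Hoxa11 CpG 170 bp after the start the 3 DBP samples (90% to 92.9%) lie above all samples given an agent.

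The plot of methylation by sample opens with the 4 that passed in both comparisons, which share their DBP values. The Hoxa11 CpG at 52196043, with the highest level of the Hox set, had 90%, 91.7% and 92.9% in DBP from 10, 24 and 14 reads. It had 82.5%, 73.8% and 57.1% with DBP+agent (difference -17.3 points, q = 0.00652) and 78.1%, 68.4% and 78.8% with DBP+BR extract (-14.1 points, q = 0.00298), both by logistic regression. DMSO had 76.9%, 100% and 75% from 13, 3 and 4 reads.

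The Hoxd13 CpG at 74505321, at -1046 bp from the start, was low in DBP, at 3.70%, 6.25% and 8.33%. It had 11.4%, 37.7% and 17.5% with DBP+agent (13.4 points, q = 0.0066) and 17.0%, 12.0% and 26.8% with DBP+BR extract (13.3 points, q = 0.00152). Its neighbours 74505307, an MspI site, and 74505326 went the other way in DBP+BR extract versus DBP. There the first had 18.3%, 4.76% and 8.51% against 24.0%, 20% and 70.0%, and the second 0, 0 and 1.79% against 3.70%, 0 and 41.7%, where DBP sample 3, with 10 and 12 reads, was high at both.

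The 2 Hoxb3 CpGs at 96207072, an MspI site, and 96207077 lie side by side in an exon, 22432 and 22437 bp from the annotated start. At the first DBP had 80%, 23.1% and 57.1%, DBP+agent 30.6%, 21.6% and 16.7% (-27.1 points, q = 0.00342) and DBP+BR extract 27.3%, 3.85% and 27.5% (-28.0 points, q = 2.2e-05). At the second DBP had 40%, 0 and 7.14% from 10, 15 and 14 reads, and of the 6 samples given an agent all were at 0 but DBP+BR extract sample 3, at 2.27%. The groups overlapped at both, with DBP sample 2 within the range of the samples given an agent.

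In DBP+agent versus DBP the smallest q belonged to a CpG upstream of Hoxb4 (-1495 bp from the start), a gene also known from blood stem cells. This CpG, at chromosome 11, 96176503, had 2.47%, 0 and 0.926% from 162, 128 and 108 reads against 14.3%, 13.04% and 23.1% (-16.0 points, q = 2.33e-10 by logistic regression), and DMSO had 13.04%, 15.7% and 5.26%. It was outside MspI sites, and every DBP+agent sample was below every DMSO and DBP sample. The second, at -303 bp from the start of Hoxa11 (52196516), was at 0 in all 3 DBP+agent samples and at 13.6%, 4% and 22.2% in DBP (-13.9 points, q = 5.96e-08).

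The other CpGs with DBP+agent samples apart from DBP were 5. At MspI sites, Hoxb13 (96055765) had 74.6%, 62.5% and 87.8% against 55.6%, 42.1% and 42.9%, and Hoxa13 (52210142) had 50%, 100% and 48.4% against 23.8%, 45.0% and 33.3%. Hoxc10 (102796446, upstream of the start, also an MspI site) went the other way, with 35.1%, 16.9% and 37.2% against 66.7%, 50% and 54.5%. Outside MspI sites, the Hoxa3 intron CpG at 52162143 had 0, 7.25% and 0 against 20%, 18.8% and 17.6%. The CpG at 52113385, in an exon of Hoxa2 that the Hoxa3 annotation also covers, had 22.5%, 23.4% and 66.7% against 15.4%, 9.09% and 18.2%. Hoxa13 and Hoxb13 act at the ends of the limbs and the body axis, and their CpGs were higher with the agent, while that of Hoxc10 was lower.

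The remaining CpGs of this comparison overlapped between groups, and in Hoxc4, Hoxc13 and Hoxa9 a single DBP+agent sample stood apart. In Hoxc4 (102857546) DBP+agent sample 3 had 59.5% and the others 5.26% and 10.8%, against 3.85%, 10% and 0 in DBP. In Hoxc13 (102757920), a gene of hair and nails, sample 2 had 47.1% and the others 6.45% and 8.11%, against 7.14%, 13.3% and 0. In Hoxa9 (52179688), a gene of blood progenitors, sample 3 had 27.5% and the others 1.19% and 0, against 17.6%, 30.8% and 23.1%. At MspI sites of Hoxb, 96144522, in an exon of Hoxb8 and upstream of Hoxb7, had 36.6%, 24.7% and 57.5% against 20%, 32.8% and 28.6%, and 96160624 in Hoxb6 had 59.1%, 43.3% and 58.3% against 46.7%, 38.5% and 20%. In Hoxb3 (96205814) the values were 3.85%, 6.52% and 0 against 22.7%, 21.6% and 0.

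In DBP+BR extract versus DBP the smallest q belonged to an MspI site in an exon of Hoxa3, a gene needed for thymus and parathyroid. This CpG, at chromosome 6, 52150356, had 77.8%, 77.8% and 58.1% against 29.7%, 53.2% and 20.6% (31.1 points, q = 1.38e-14 by logistic regression), and DMSO had 46.3%, 46.2% and 38.7%. All 3 DBP+BR extract samples were above all DMSO and DBP samples. The second, in an exon of Hoxd11 at 74520680, rested on DBP+BR extract sample 3, with 24.2% of 194 reads, since samples 1 and 2 were at 0 and DBP had 0, 5.13% and 0 (15.2 points, q = 5.12e-13).

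Hoxa10, a gene of the uterus and lumbar spine, held 5 of the 19 CpGs, all lower with BR extract. Over all CpGs tested 4.94% passed and were lower. These 5 share the same DBP samples, and neighbours can lie on the same reads, so they are not separate evidence. An intron CpG at 52189805 had 2.44%, 0 and 0 against 26.7%, 16.7% and 10% (DBP reads 15, 12 and 10), and its neighbour 52189827 had 0 in all 3 against 26.7%, 0 and 10%. The other 3 were MspI sites, at 52183974 with 26.9%, 8.33% and 0 against 58.8%, 37.0% and 21.9%, at 52183131 with 9.84%, 9.09% and 10.6% against 47.6%, 28.6% and 4.55%, and at 52190428 with 36.1%, 5.6% and 18.6% against 36.4%, 13.3% and 22.7%. Only at 52189805 did the groups not overlap. Over the whole gene the difference was -1.71 points and did not pass (edgeR adjusted p = 1).

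Of the other CpGs of that comparison, an MspI site in an exon of Hoxb8 (96144321) had 13.2%, 15% and 17.0% against 23.5%, 39.4% and 65.2%, with groups apart. The remaining 5 overlapped. Hoxd3 (74585101) had 37.5%, 20.8% and 12.9% against 0, 0 and 13.2%, and Hoxa9 (52179813) had 0, 24.4% and 25% against 8.70%, 0 and 12.9%. A CpG 157 bp into Hoxd13 (74506524) rested on sample 2, with 31.0% against 0 in the other two and 10%, 0 and 0 in DBP. Lower values were found at Hoxb3 (96207368), with 2%, 12.5% and 8.57% against 12.5%, 18.2% and 28.6%, and at Hoxa9 (52179423, an MspI site), with 7.69%, 11.5% and 21.2% against 18.8%, 25% and 28.9%.

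The profile over the 38 genes was also compared between single samples, as a description. Pearson's r of the 38 levels lay between 0.54 and 0.87 (mean 0.75) for the 12 pairs of samples within a group and between 0.62 and 0.92 (mean 0.78) for the 54 pairs between groups, given here as a description over genes that share reads.

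Other genes tied to Hox function were read in the same way. The ParaHox genes, a related homeobox set that includes Pdx1, Gsx2 and Cdx2, had all 6 members measured and a median of 11.1% (3.56% outside MspI sites), from 5.23% in Cdx2 to 38.9% in Cdx4. The Hox cofactors of the Pbx, Meis and Pknox families, which bind DNA with Hox proteins, had 8 of 9 measured and a median of 24.2% (15.8% outside MspI sites). Genes flanking the clusters had 11 of 12 measured and a median of 17.8%, from 4.14% in Mtx2 to 86.4% in Calcoco1. Polycomb and trithorax regulators, which keep Hox genes silent or active, had 7 of 8 annotated genes measured and a median of 16.5%. None of these genes passed the edgeR test in any of the 3 comparisons, as no gene did.

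Expression was not measured by these files, so the tissue can be checked only through methylation at marker genes. Windows of stratified epithelium markers (5 of 7 measured) had a mean between 52.9% and 61.5% in every sample, those of skeletal muscle (4 of 6) between 36.3% and 44.0%, and those of fibroblasts (3 of 4) between 24.95% and 40.6%. Of 5 leukocyte markers only Itgam had enough reads, with a mean of 70.8%. The ranges of DMSO and DBP overlapped for epithelium, muscle, fibroblasts and Itgam, and the part of cell composition in the Hox values was not tested.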

How the data were processed

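Genomic DNA of 12 oral tissue samples, 3 in each of 4 groups, was examined by ERRBS with MspI digestion. Per the labels, reads were trimmed with Trim Galore 0.3.3 and aligned to mm9 with Bismark 0.10.1. The authors deposited for each sample and cytosine a percent of methylation and the counts of methylated and unmethylated reads, with no normalization. The deposited percent columns were not used further, since the counts give them. All 5202139 positions were CpG cytosines of mm9, and depth ran from 3286281 to 78865849 calls per sample.

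Here counts were pooled per gene from 2000 bp upstream of the start to the end (GENCODE vM1), with at least 20 reads per gene and sample. Samples were grouped by the labels. Genes were tested with edgeR 4.0.16 in R 4.3.3 (sample effects and a group effect on methylation), with Benjamini-Hochberg adjustment over all protein-coding genes tested and a threshold of 0.05. CpGs were tested by a likelihood ratio in logistic regression, computed with NumPy 2.4.6 and SciPy 1.17.1 (Python 3.11.15, pandas 2.3.3). The p-values were adjusted with statsmodels 0.14.6. Cytosines needed 10 reads and coverage at or below the 99.9th percentile in every sample, both strands of a CpG were merged after scaling the samples to the highest median coverage, and a q under 0.01 with a difference over 10 points was required. Both tests were checked on simulated data, but edgeR at single CpGs was not. At gene level edgeR found 96, 87 and 81 of 100 simulated differences of 20 points. Of 100 differences of 10 points it found 21, 11 and 10. At single CpGs the regression found 23, 57 and 81 of 100 simulated differences of 25 points. The order is DBP versus DMSO, DBP+agent versus DBP and DBP+BR extract versus DBP. Wilson intervals at 95% were computed for gene levels, and cover counting error alone, because PCR copies cannot be told from separate molecules. The intervals also take several calls of the same read as independent.

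Named were the highest and lowest gene of each cluster, the 2 genes with the smallest p in a comparison where none passed, and every CpG past the thresholds or, where none was, the 2 with the smallest p. The members, gene lists and tests were chosen with earlier results of these data known. Sequences were read from mm9 and chosen after the levels were seen, as was the split by MspI sites. Alternatives were other read minimums, windows, weights, tests, a replicate block, and each sample left out.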

Additional observations from a re-analysis of the deposited data

How the results depend on the processing

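Depth limits these results, since only 98 Hox CpGs had 10 reads in all 12 samples. No Hox gene passed in the gene-level test in any comparison under any alternative (edgeR, or logistic regression with overdispersion, which missed every change in its check on simulated data). The replicate numbers did not pair the samples (correlations of deviations from -0.101 to 0.0454 over 14383 genes). With the replicate number as a block, 0 Hox genes passed in each comparison, and 0, 21 and 21 Hox CpGs passed in DBP versus DMSO, DBP+agent versus DBP and DBP+BR extract versus DBP, against 0, 17 and 19 without it (0.106%, 5.65% and 7.88% of all CpGs with the block).

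In DBP+agent versus DBP the count of Hox CpGs was 35 of 627 at 5 reads (5.65% of all CpGs tested passed), 3 of 97 at 20 reads (4.76%), 2 of 302 with no scaling of coverage (1.18%), 9 of 235 outside MspI sites (3.8%, chosen after seeing the data) and 0 of 302 with edgeR (0%). In DBP+BR extract versus DBP it was 38 of 538 (6.62%), 2 of 63 (7.69%), 9 of 236 (1.84%), 10 of 181 (5.47%) and 0 of 236 (0%) in that order, and 30 of 236 at a q of 0.05 (11.4%). Leaving out each sample gave 0 to 1, 11 to 25 and 15 to 32 Hox CpGs in the 3 comparisons, and the shares of all CpGs that passed ran from 0.0276% to 0.211%, 4.35% to 6.43% and 5.55% to 10.3%. For the counts, scaling multiplies the reads of shallow samples. The cause of the other changes was not tested.

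Cluster levels moved by more than 1 SD as follows, in the order DMSO, DBP, DBP+agent and DBP+BR extract. Outside MspI sites they were 5.89%, 6.55%, 5.63% and 6.28% in Hoxa, 3.37%, 3.98%, 3.08% and 3.46% in Hoxb, 5.52%, 5.13%, 4.72% and 4.85% in Hoxc, and 4.42%, 3.95%, 4.35% and 4.45% in Hoxd. Within 1000 bp of the start they were 8.56%, 10.3%, 9.36% and 9.18% in Hoxa, 8.10%, 9.56%, 8.57% and 8.67% in Hoxc, and 7.78%, 7.19%, 8.27% and 7.72% in Hoxd. As a mean over genes they were 14.5% in Hoxa (DMSO), 11.5% and 11.7% in Hoxb (DBP, DBP+agent), 13.4%, 13.2%, 12.3% and 12.2% in Hoxc, and 12.8%, 12.5%, 12.0% and 11.5% in Hoxd. With 10 reads per cytosine they were 10.004% in Hoxc (DMSO) and 7.21% and 6.89% in Hoxd (DMSO, DBP). Over CpGs read in all 12 samples they were 13.1%, 12.1% and 12.1% in Hoxc (DBP and both agent groups) and 10.04% and 10.97% in Hoxd (DBP, DBP+agent). The other 33 values, and all 48 with a sample left out, moved by less than 1 SD.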
